A study of Mus musculus with 6 samples.

Results

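S100 proteins are small calcium-binding proteins of the EF-hand family, and 10 of their genes were followed in mouse liver: S100g, S100a1, S100a4, S100a6, S100a8, S100a9, S100a10, S100a11, S100a13 and S100a16. They were taken as every non-control probe carrying one of these gene symbols in the authors' further-processed table, which gave 14 of the 55681 probes and 10 of the 24239 genes with a symbol. S100g was the reason for the choice, and the genes were selected on its measured difference between TCE and control mice in these arrays, so that change is given as a description without a test. The mice were B6C3F1 males with an age label of 7 weeks. The 3 control mice received corn oil by mouth, and the 3 treated mice received trichloroethylene (TCE), a chlorinated solvent, daily in corn oil, at a dose of 1000 mg/kg and over 5 days. Liver RNA of each mouse was hybridized to a 1-colour whole-genome array of its own. The question was which mRNAs of the liver differed after TCE.

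An S100 protein usually works as a dimer. Calcium binding opens a surface that grips a target protein, and most members have no enzyme activity of their own. S100g, also called calbindin-D9k, is an exception, because it acts as a calcium buffer and carrier in the cytoplasm. It is best known from the absorbing cells of the small intestine, where vitamin D raises it, and from the uterus. S100a8 and S100a9 pair to form calprotectin, an abundant protein of neutrophils. S100a10 binds annexin A2 at membranes. S100a4, S100a6 and S100a11 are linked to cell movement and growth, S100a1 to calcium handling in muscle, and S100a13 to the release of proteins that lack a signal peptide.

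The members lie on 2 chromosomes, 9 of them on chromosome 3 and S100g on chromosome X. On mm9, the build of the array annotation, the S100g probes lie on the minus strand at chrX:159399938-159399997 (the first probe) and chrX:159399924-159399983 (the second probe). They are shifted by 14 bases and share 46 bases, so they read the same stretch of transcript and are not independent measurements. A part of the shared stretch is shown because it marks where along the transcript the signal was read. It holds the polyadenylation signal AATAAA, in capitals, a motif found close to the 3′ end of transcripts.
S100g probes, shared part: atacatactgttAATAAAgcaagttcggag

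In RefSeq (GRCm38.p6), promoters were found for 9 of the 10 members, and S100a10 was not in the table. The 250 bases before the start are shown for the 3 members with the largest changes, S100g on the minus strand at chrX:162964600-162964849, S100a8 on the plus strand at chr3:90668821-90669070 and S100a11 on the plus strand at chr3:93520246-93520495. Capitals mark AGGTCA, a half-site of nuclear receptors, and TGANTCA. The latter widens the motif of AP-1 factors such as Jun (TGAGTCA or TGACTCA) to any middle base. Both were searched on both strands, so AGGTCA on the other strand is read as TGACCT.
S100g: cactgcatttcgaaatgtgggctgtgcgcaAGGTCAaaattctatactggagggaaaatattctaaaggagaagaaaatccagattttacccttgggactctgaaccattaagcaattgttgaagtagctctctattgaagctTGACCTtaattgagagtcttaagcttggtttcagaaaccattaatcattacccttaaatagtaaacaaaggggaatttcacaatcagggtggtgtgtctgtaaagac
S100a8: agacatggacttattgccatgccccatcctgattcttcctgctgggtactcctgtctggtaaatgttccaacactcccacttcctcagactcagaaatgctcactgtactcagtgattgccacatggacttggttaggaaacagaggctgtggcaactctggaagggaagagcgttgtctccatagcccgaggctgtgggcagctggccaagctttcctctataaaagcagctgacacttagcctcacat
S100a11: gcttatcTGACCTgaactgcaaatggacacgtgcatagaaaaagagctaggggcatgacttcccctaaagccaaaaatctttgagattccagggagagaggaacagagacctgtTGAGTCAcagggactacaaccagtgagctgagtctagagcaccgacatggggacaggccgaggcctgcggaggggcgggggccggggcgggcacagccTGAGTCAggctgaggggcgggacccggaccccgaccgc

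The S100g window holds AGGTCA 2 times, 220 and 107 bases before the start, and no TGANTCA. The S100a11 window holds AGGTCA 243 bases before the start and TGANTCA 136 and 38 bases before it. The S100a8 window holds neither motif. Among the members, 4 of the 9 hold AGGTCA in a window and 2 hold TGANTCA, the others being S100a4 (AGGTCA, 24 bases before the start) and S100a16 (AGGTCA 221 bases before 1 start and TGANTCA 192 bases before another). The S100a11 matches read TGAGTCA, but the S100a16 match reads TGAATCA, which is not the AP-1 motif itself. Of 32851 promoter windows of the same length, 14% hold AGGTCA and 6.75% hold TGANTCA. These shares count windows, whereas the members were counted as genes, with 10 windows for the 9 members. A match gives the letters alone and is no evidence that a factor binds there.

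All signals are log2 values after quantile normalization, and they are comparable between mice for one probe but not between probes. A probe was called detected when it was well above background, by the flag of the scanner software, on all 3 arrays of at least 1 group. All 10 members were detected, and 9 of them, every member but S100g, were well above background on all 6 arrays. Per array, 23538 to 24968 probes were well above background, the lowest such signal was 4.54 to 5.02, and no spot was saturated. Control 1 was the only array on slide 1, so each change below is also given within slide 2 (control mice 2 and 3 against all TCE mice) where that matters. The tissue label was met by its markers, since all 8 hepatocyte genes examined were well above background in every mouse. RNA came from whole liver, so that a change in the number of cells of one type and a change of RNA per cell cannot be told apart.

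S100g went from a signal near or below background in control mice to a strong signal in every TCE mouse. The first probe, which stands for the gene because it has the higher mean, measured 3.30, 5.39 and 3.52 in control mice 1, 2 and 3. It measured 10.20, 11.09 and 10.65 in TCE mice 1, 2 and 3. The groups lay far apart, and among the controls mouse 2 alone was well above background. The TCE mean exceeded the control mean by 6.57 (10.65 ± 0.44 against 4.07 ± 1.15, SD, n = 3 each). Because the control signals of mice 1 and 3 were not well above background, the size of this difference is uncertain.

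The second S100g probe measured 2.75, 3.05 and 3.94 in control mice and 9.75, 10.72 and 10.48 in TCE mice. None of the control mice was well above background with this probe, so that the size of its difference of 7.07 is uncertain. With the background correction of the processed signal, setting the control arrays at their lowest signal well above background gives a 46.3-fold higher S100g signal after TCE. This is a lower limit for that correction alone, since the normexp differences given below are smaller. TCE mouse 2 was the highest and TCE mouse 1 the lowest with either probe. Across the 6 mice the probes correlated with Pearson r = 0.97, which is a description, since they share bases and arrays and the mice fall into separate groups.

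The S100g difference depended strongly on how the background was handled. The normexp correction was run here with an offset of 50 added to every spot. With it the difference was 4.02 with the first probe and 3.95 with the second. An added offset by itself makes log2 differences of dim probes smaller, so this drop does not separate the correction from the offset. The same holds for the normexp values of the other genes below. Within slide 2 the difference was 6.19 and 6.82. Leaving out each mouse in turn gave 6.19 to 7.25 with the first probe.

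**Figure D1:**
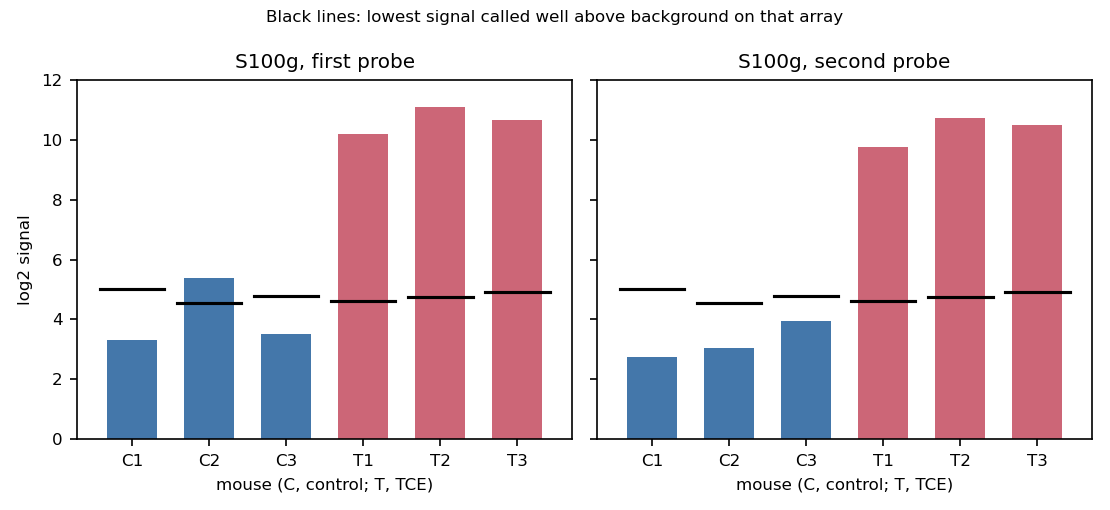
S100g signal (log2) of each mouse with the first probe (left) and the second probe (right), for control mice C1 to C3 and TCE mice T1 to T3, with a black line at the lowest signal called well above background on each array. All TCE bars reach 9.75 or more, and control mouse 2 with the first probe is the only control bar above its line.

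Among the other 9 members, 0 passed the threshold (a limma adjusted p no higher than 0.05 together with a change of at least 2-fold), while unadjusted limma p values were under 0.05 for 3 (S100a8, S100a10 and S100a11), beside 19.1% of the 13284 detected genes in either direction. Counting S100g, 1 of the 10 members was past the threshold, against 1.93% of all detected genes in either direction (1.44% higher and 0.489% lower in TCE mice), and nothing is read from that count because S100g chose the genes. By sign, 7 of the 9 had a higher mean in TCE mice and 2 a lower one, but S100a4, S100a9 and S100a13 turned to a lower mean within slide 2. Their differences ran from -0.21 to 1.19 with a median of 0.16, beside a median of 0.021 over all detected genes. In 3 of the 9 every TCE mouse lay above every control mouse, and in 0 every TCE mouse lay below, against 17.1% and 10.8% of all detected genes (27.9% in either direction). The smallest p that an exact permutation test of 3 against 3 mice can give is 0.1. By the test the study's methods name, without adjustment and with the same fold limit, S100a8 and S100a11 were past the threshold, as were 2.15% of detected genes in the upward direction.

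S100a8, the smaller chain of calprotectin, had signals of 5.57, 6.24 and 5.96 in control mice and of 6.75, 7.03 and 7.55 in TCE mice. Every TCE mouse lay above the highest control, and TCE mouse 3 was the highest of all. The mean difference was 1.19 (SE 0.26, 95% interval 0.56 to 1.81), or 2.28-fold, with a limma adjusted p of 0.0886. Within slide 2 it was 1.01 (limma adjusted p = 0.205), and with normexp it was 0.70, under 2-fold.

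S100a9, its partner chain, measured 8.21, 8.996 and 9.11 in control mice and 8.69, 8.92 and 9.49 in TCE mice. The groups overlapped, and control mouse 1 lay below all other mice. The difference was 0.26 (95% interval -0.48 to 1.01, limma adjusted p = 0.703), and within slide 2 it was -0.021. TCE mouse 3 was the highest mouse for both chains.

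S100a11, which binds annexin A1, measured 7.20, 6.97 and 6.94 in control mice and 8.54, 8.32 and 7.68 in TCE mice. The groups did not overlap, but TCE mouse 3 lay about midway between the controls and the other TCE mice. The difference was 1.14 (SE 0.24, 95% interval 0.58 to 1.71), or 2.21-fold, with a limma adjusted p of 0.0753. Without TCE mouse 3 the difference was 1.40 and the limma adjusted p was 0.0317, past the threshold. Within slide 2 it was 1.23 (limma adjusted p = 0.156), and with normexp it was 0.78, under 2-fold.

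S100a10, the annexin A2 partner, lay within a narrow range in control mice, at 11.73, 11.67 and 11.78. TCE mice measured 12.16, 12.19 and 12.91, each above every control. The difference of 0.69 (SE 0.22, 95% interval 0.16 to 1.22, limma adjusted p = 0.18) came in part from TCE mouse 3. Without that mouse it was 0.45. Thus TCE mouse 3 was the highest TCE mouse for S100a10 and the lowest for S100a11, although these genes are close neighbours on chromosome 3.

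**Figure D2:**
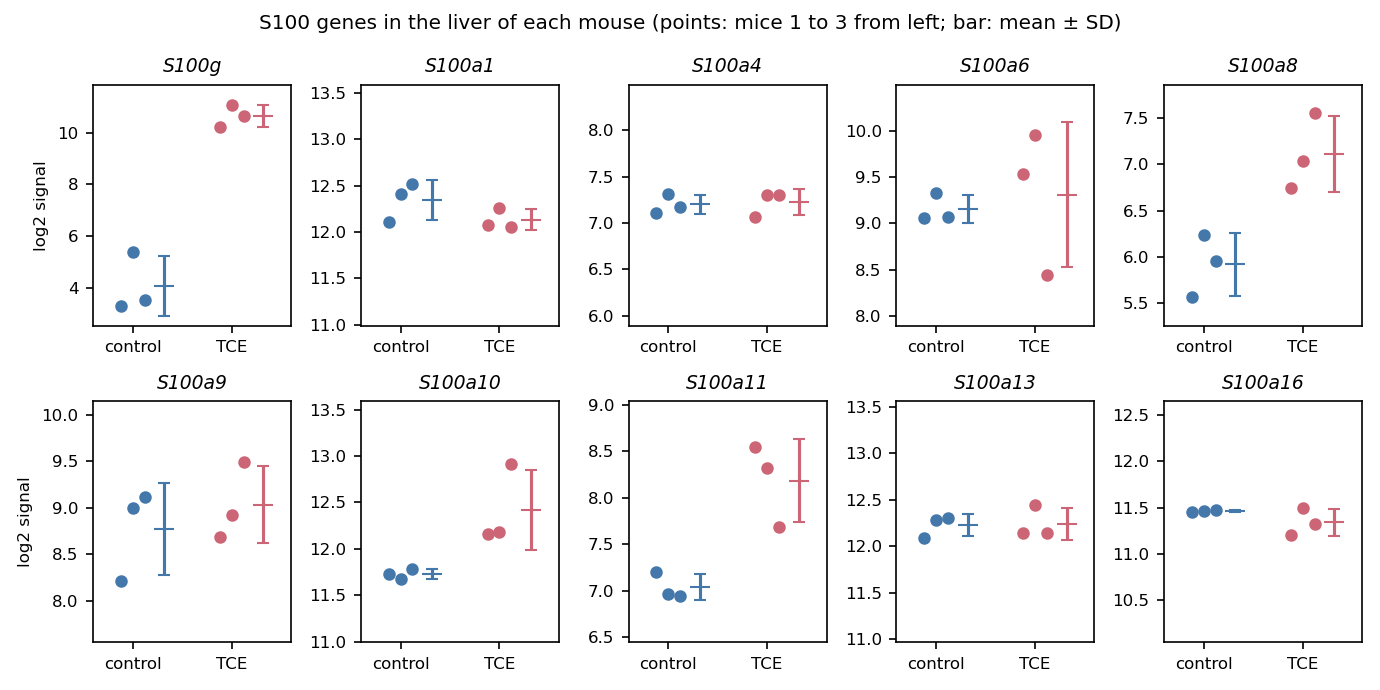
Signal (log2) of the representative probe of each S100 gene in each mouse, mice 1 to 3 from left to right within a group, with the mean and SD (n = 3) beside the points; every panel has its own scale. S100g, S100a8, S100a10 and S100a11 are the panels in which the groups do not overlap.

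S100a6, or calcyclin, varied most among the TCE mice of the 9 other members. Control mice measured 9.06, 9.33 and 9.07, and TCE mice 9.53, 9.95 and 8.44. Mice 1 and 2 of the TCE group were above all controls and mouse 3 was below them, which gave a difference of 0.16 (SE 0.38, 95% interval -0.75 to 1.06, limma adjusted p = 0.865). Without TCE mouse 3 the difference was 0.59 and without TCE mouse 2 it was -0.17, so that its direction depends on 1 mouse.

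The remaining members differed by 0.21 or less with their representative probes, and their groups overlapped. S100a1 measured 12.11, 12.41 and 12.52 in control mice and 12.08, 12.26 and 12.06 in TCE mice, a difference of -0.21 (95% interval -0.57 to 0.14, limma adjusted p = 0.506). S100a16 measured 11.45, 11.46 and 11.47 in control mice and 11.20, 11.49 and 11.33 in TCE mice, a difference of -0.12 (95% interval -0.40 to 0.17, limma adjusted p = 0.645). Within slide 2 the S100a1 difference was -0.33, and leaving out each mouse gave -0.33 to -0.13 for S100a1 and -0.19 to -0.051 for S100a16. With the representative probes, the intervals of both genes leave out a change of 2-fold in either direction. The same holds for the representative probes of S100a4 and S100a13. S100a4, a protein of moving cells, differed by 0.027 (95% interval -0.28 to 0.33), with 7.11 to 7.32 in control mice and 7.07 to 7.31 in TCE mice. S100a13 differed by 0.015 (95% interval -0.32 to 0.35), with 12.09 to 12.31 in control mice and 12.14 to 12.44 in TCE mice.

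For S100a1, S100a4 and S100a16 a further probe was measured, and none of these passed the threshold. The further S100a1 probe differed by -0.37 (95% interval -1.07 to 0.33, which takes in a fall of 2-fold, limma adjusted p = 0.559), with TCE mouse 1 at 10.41 and all other mice between 11.18 and 11.60. The further S100a4 probe differed by 0.36 (limma adjusted p = 0.477), against 0.027 with the representative probe. The further S100a16 probe differed by -0.17 (limma adjusted p = 0.606). Each had the sign of its representative probe.

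The order of the TCE mice was not the same across members. TCE mouse 1 was the lowest of the TCE mice for 7 of the 10 members and the highest for 1, S100a11. TCE mouse 2 was the highest for 5 and the lowest for 0. TCE mouse 3 was the highest for 4 and the lowest for 3.

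**Figure D3:**
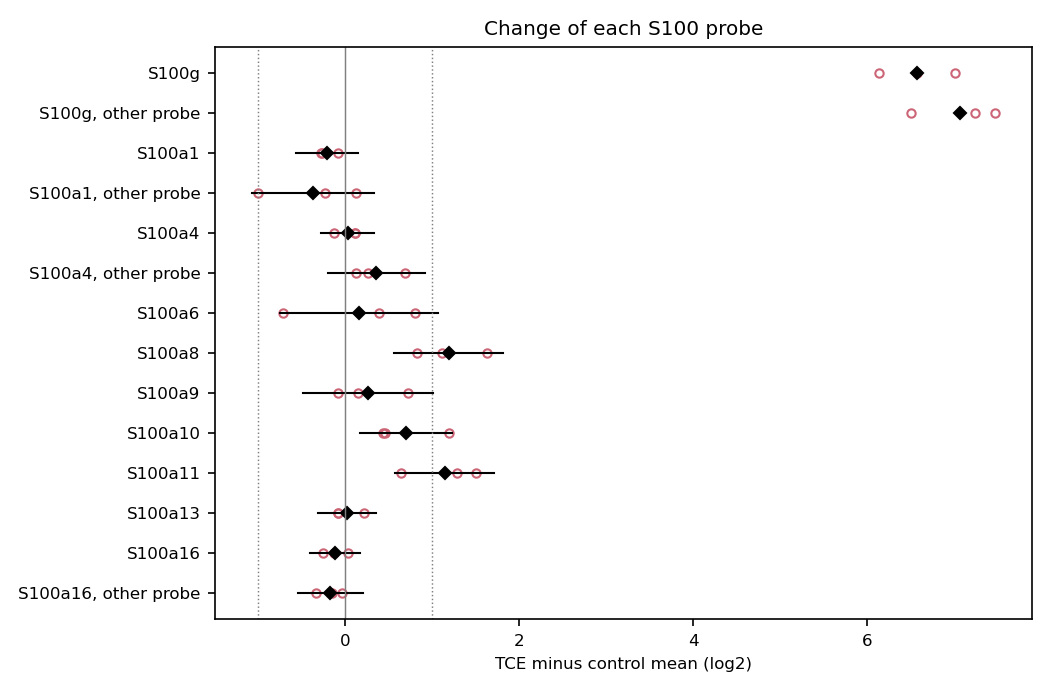
TCE minus the control mean (log2) for each of the 14 S100 probes: open circles are the TCE mice, diamonds the mean, lines the 95% interval of the limma fit (not drawn for S100g, whose change chose the genes), and dotted lines a change of 2-fold. Both S100g probes lie above 6, and the means of S100a8 and S100a11 lie just past the dotted line.

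The array carried 7 S100 genes outside the members. S100a5 was well above background in all mice, with 6.43, 7.21 and 7.06 in control mice and 5.48, 6.03 and 6.55 in TCE mice. Its groups overlapped by 1 mouse each, and the difference was -0.88 (limma adjusted p = 0.236). S100a2, S100a3, S100a7a, S100a14 and S100z stayed below the detection level in all mice (not well above background on any array), and S100b reached it in TCE mouse 3 alone.

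Binding partners and receptors of S100 proteins were followed as a list of 15 genes, of which 12 were detected. Of all detected genes, 1.93% were past the threshold in either direction. In this list Cd36, a fatty acid transporter that also binds S100a8 and S100a9 complexes, was the only gene past it, and was higher. It measured 7.23, 7.16 and 6.58 in control mice and 9.72, 10.01 and 10.13 in TCE mice, a difference of 2.96 (limma adjusted p = 0.00301). The median difference of the detected genes of the list was -0.0024. Anxa2, the partner of S100a10, measured 11.39, 11.18 and 11.11 in control mice and 11.70, 11.81 and 11.88 in TCE mice. Its groups did not overlap, and the difference of 0.57 had a limma adjusted p of 0.0904. Ahnak, a scaffold bound by the S100a10 and annexin A2 complex, differed by -0.64 (limma adjusted p = 0.308). Its groups did not overlap either, with every TCE mouse below every control mouse. Ager, the receptor RAGE, stayed below the detection level in all mice.

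Genes of vitamin D action and calcium transport, the setting in which S100g is best known, were followed as a list of 14. Of these, 7 were detected and 7 stayed below the detection level in all mice, among the latter the vitamin D receptor Vdr and its target Cyp24a1. Of the 7 detected, 0 passed the threshold in limma, beside 1.93% of all detected genes in either direction. An unadjusted limma p under 0.05 was found for 0 of the 7, beside 19.1% of all detected genes. With so few genes nothing is read from these counts. The 3 detected genes of the list with the largest differences were Atp2b4, a calcium pump of the plasma membrane, at -0.51, Cyp27a1, a sterol and vitamin D hydroxylase, at -0.38 and Rxra, the partner receptor of Vdr, at -0.33. Other EF-hand genes gave the same count, with 0 of 15 detected genes past the threshold and 3 with an unadjusted limma p under 0.05, beside the 19.1% of all detected genes. Their largest difference was that of Nucb2, a calcium-binding protein of the secretory pathway, at -1.19 (limma adjusted p = 0.0748).

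Markers of other cell types were read beside the members, and their part in the members' changes was not tested. Of 12 neutrophil genes, which leave out S100a8 and S100a9, 7 stayed below the detection level in all mice, among them Mpo, Ngp, Ltf, Mmp8 and Cxcr2. The 5 detected had a median difference of 0.17, and their summed signal, mostly Csf3r, was 11617 to 25687 in control mice and 19122 to 29243 in TCE mice. Prtn3, a neutrophil protease, was past the threshold, but it counted as detected through the TCE mice alone, since no control mouse was well above background. As a bound it was at least 2.68-fold higher in TCE mice. The call was lost with all probes tested and in 5 of the 6 fits that left out a mouse, all but the fit without TCE mouse 2. Of 10 macrophage genes all were detected and 0 passed the threshold or had an unadjusted limma p under 0.05. Over all detected genes these shares were 1.93% and 19.1% in either direction. The summed signal of the macrophage genes was 24650 to 28077 in control mice and 23555 to 29442 in TCE mice.

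Of 10 intestinal genes, 3 were detected. The defining genes Cdx1, Cdx2, Sis, Lct, Fabp6 and Alpi stayed below the detection level in all mice. Vil1, which bundles actin in microvilli, was past the threshold and lower, but it counted as detected through the control mice alone, since no TCE mouse was well above background. As a bound it was at least 1.47-fold lower in TCE mice. That call too was lost with all probes tested and in 5 of the 6 fits that left out a mouse, all but the fit without control mouse 1. The summed signal of the list, mostly Fabp2, was 26618 to 29591 in control mice and 32955 to 46367 in TCE mice. Fabp2 itself differed by 0.54 (limma adjusted p = 0.198). Tff3 differed by 0.018, with TCE mice spread from 8.99 to 12.11. Muc2 was well above background in TCE mouse 3 alone. Bile duct, stellate cell and fibroblast, endothelial and hepatocyte lists of 8, 10, 6 and 8 genes had 0 genes past the threshold in limma. Of all detected genes 1.93% were past it in either direction. An unadjusted limma p under 0.05, the level of 19.1% of all detected genes, was reached by 0, 1, 0 and 2 genes of these lists. Their summed signals ran from 557 to 711, 27167 to 38746, 22940 to 23410 and 1236430 to 1314380 in control mice, and from 483 to 631, 28923 to 37757, 12838 to 24948 and 1178350 to 1265570 in TCE mice. All 6 endothelial genes had a lower mean in TCE mice, and each was lowest of the TCE mice in TCE mouse 1. Clec4g measured 12.46 in TCE mouse 1, against 13.84 and 13.53 in TCE mice 2 and 3. The stellate cell and fibroblast sum was mostly Dcn. Of the 9 genes detected in that list, 4 were higher and 5 lower. The largest differences were those of Lrat at -1.35 (limma adjusted p = 0.0676, no overlap of the groups) and Reln at -1.34 (limma adjusted p = 0.368, overlap).

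**Figure D4:**
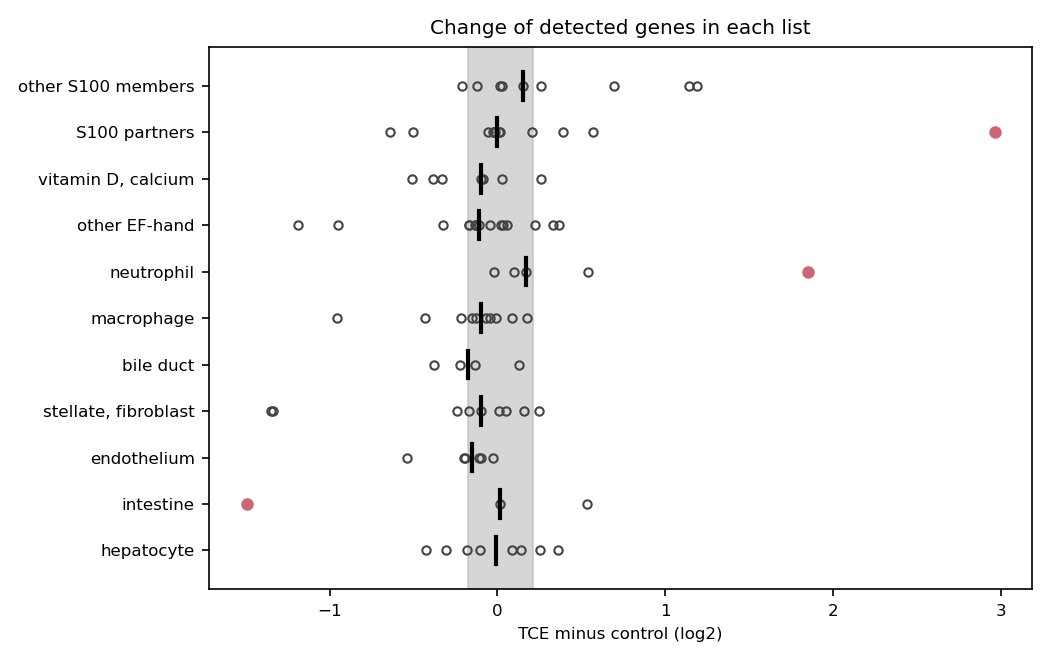
TCE minus control (log2) of every detected gene in each list, with filled circles for genes past the threshold and a bar at the median; the grey band runs from the 0.25 to the 0.75 quantile of all detected genes. S100g is left out of the top row. Cd36, Prtn3 and Vil1 are the filled circles.

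Genes near S100g on chromosome X were read within 500000 bases on mm9. Ctps2, which makes CTP, lies 69254 bases away from the first S100g probe. It measured 9.63, 9.79 and 9.90 in control mice and 10.40, 10.40 and 10.64 in TCE mice, a difference of 0.70 (limma adjusted p = 0.0613), and its other probe differed by 0.41 (limma adjusted p = 0.609). Syap1 differed by 0.19, Txlng by -0.18 to -0.031 over 3 probes, and Rbbp7 by -0.084 and -0.017. None of these passed the threshold.

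The 5 detected genes with the pattern most like that of S100g, by Pearson correlation of log2 signals over the 6 mice with the first probe, were Timm22 (r = 0.997), Cir1 (0.997), Aurka (0.996), Slc18a1 (0.995) and Gm12620 (0.993). With the second probe their correlations were 0.95 to 0.98. The mice fall into separate groups, so these values mostly record the step between control and TCE. The steps were far smaller than that of S100g. Because the pick favours genes with such a step, their differences are given without a test. Aurka, a mitotic kinase, differed by 2.19, with 5.47, 6.14 and 5.71 in control mice and 7.73, 8.05 and 8.11 in TCE mice. Timm22, a subunit of the mitochondrial import machinery, differed by 0.30.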

How the data were processed

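RNA of each mouse was labelled with 1 dye and scanned on its own array. The authors extracted spot intensity values with Agilent Feature Extraction 10.7.1.1, per the submitters' processing notes, and the deposited gProcessedSignal intensity is corrected for background and spatial trends. A further deposited file of the authors gives mean intensity and quantile-normalized log2 means per group. It served to assign gene symbols, and its log2 means lay within 0.01 of those computed here for 99.95% of probes in both groups. Its 6 columns of detection flags were not used, because their names could not be tied to single mice.

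Here outlier-flagged spots (123 to 189 per array) were dropped, log2 of the processed signal was taken as it stands, replicate spots were averaged, and the 55681 non-control probes were quantile normalized over the 6 arrays. A model with treatment alone was fitted to the 22731 detected probes by lmFit and eBayes of limma 3.58.1 (R 4.3.3, with statmod 1.5.0). Its tests were two-sided, with p values adjusted by Benjamini-Hochberg over all of them. For a gene with several probes, the detected probe with the highest mean stood for the gene; the counts of all genes past the threshold used any probe. A bound set the dim group, on each array, at the higher of the probe's own signal and the lowest signal well above background. Bounds refer to the processed signal and not to other background corrections. The number of arrays limits the precision. The labels give replicate numbers within each group, and each array was taken as a separate mouse.

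The members and lists were chosen with earlier results of these data known. Named genes were all members, other S100 genes, listed genes past the threshold or among the 3 largest changes of a list, chromosome X neighbours apart from 1 that is not reported here, and the 5 genes most like S100g; genes not above background were named as such after their values were seen. Promoters came from RefSeq. Alternatives were another normalization and background correction, other probe filters, no removal of outlier spots, a block for slide or for replicate number, each mouse left out, the methods' t-test, adjusted p alone and the other probe of a gene.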

Additional observations from a re-analysis of the deposited data

How the results depend on the processing

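The number of S100 members past the threshold was 1, and nothing is read from its stability, because the 1 was S100g, whose change chose the genes. The number was 0 when only probes well above background on all 6 arrays were tested, which removes S100g, and 3 with the methods' t-test without adjustment, which added S100a8 (1.19) and S100a11 (1.14). Leaving out each mouse gave 1 to 2, with S100a11 added without TCE mouse 3. S100g differed by 6.57, by 6.19 to 7.25 with a mouse left out, and by 4.02 with normexp, or 3.95 with its second probe. The median of the other 9 members, 0.16, was -0.018 with slide as a block and -0.017 to 0.24 with a mouse left out. With slide as a block the sign turned for S100a4 (-0.018), S100a9 (-0.021) and S100a13 (-0.054), none of them past the threshold in any fit. With a mouse left out the ranges crossed 0 for the same genes and S100a6: -0.017 to 0.11 for S100a4, -0.17 to 0.59 for S100a6, -0.021 to 0.43 for S100a9 and -0.083 to 0.067 for S100a13. S100a8 stayed at 0.97 to 1.37 (limma adjusted p 0.128 to 0.207) and S100a11 at 0.96 to 1.40 (0.0317 to 0.241), the lowest p without TCE mouse 3. With normexp and its offset of 50, which makes differences of dim probes smaller, S100a8 was 0.70 and S100a11 0.78.

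Of the related-gene and marker lists together, 3 genes were past the threshold (Cd36, Prtn3 and Vil1), beside 1.93% of all detected genes in either direction. The detected genes numbered 12 partner, 7 vitamin D and calcium, 15 other EF-hand, 5 neutrophil, 10 macrophage and 4 bile duct genes. The other lists held 9 stellate cell and fibroblast, 6 endothelial, 3 intestinal, 8 hepatocyte and 1 further S100 gene. The list count used representative probes and the share any probe, so they are not like for like. Of the 3 genes past the threshold, Cd36 alone was well above background in both groups. The count was 1 with normexp, 1 with all probes tested and 1 with probes above background on all 6 arrays, in each case Cd36. With slide as a block the count was 2, Cd36 and Vil1. It was 5 with the unadjusted t-test of the methods, which added Lrat and Nucb2, and 0 with that test adjusted. Leaving out each mouse gave 1 to 2; Prtn3 was lost in each such fit except without TCE mouse 2, and Vil1 in each except without control mouse 1. The causes were not tested.

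Replicate numbers 1 to 3 occur in both groups, but deviations from the group means correlated at only -0.0916 to 0.0897 between mice of the same number, and 1 of 3 control mice and 1 of 3 TCE mice correlated best with its own number, so the numbers were not taken as pairs. With the replicate block 1 S100 member and 0 listed genes were past the threshold, and S100g differed by 6.57. Signal over background limits S100g most, since its control values are not measured precisely.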
